A study of Mus musculus with 9 samples.

Results

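Type I interferon antiviral effectors were described as a set of 40 genes, found by symbol among the 35321 genes of the deposited table. The list held IFIT, OAS, MX and PARP family genes and other interferon-stimulated genes. All 40 were in the table, and all 40 reached 1 FPKM (read fragments scaled to transcript length and library size) in at least 3 of the 9 samples, the filter that left 13687 genes for testing. The samples were tumours of LLC cells, a mouse lung carcinoma line from the C57BL/6 strain, implanted under the flank skin of male C57BL/6 mice aged 4 to 5 weeks. From 5 days after implantation the mice received intraperitoneal injections of vehicle (PBS), 0.1 mg/kg digoxin (called the low dose) or 1 mg/kg digoxin (the high dose), with 3 samples in each group and a tumour in every mouse. Digoxin blocks the sodium-potassium pump (Na,K-ATPase) and is used as a heart drug. The sources used here do not say whether a group's samples were separate mice, how many injections were given or when tumours were collected. The p-values thus measure the spread between samples, which may be technical. Of 6 epithelial markers, Epcam (0 to 0.149 FPKM over the 9 samples) and Cdh1 (0.162 to 0.643 FPKM) were near 0. Summed over the 6, vehicle samples held 46.3 to 68.0 FPKM. Low-dose samples held 81.8 to 109 FPKM and high-dose samples 112 to 137 FPKM. Most of these sums came from the keratins Krt8, which rose, and Krt18, which fell. Both are described at the end, and their levels are uncertain. The median over the 6 markers of log2(FPKM + 1) minus the vehicle mean stayed between −0.11 and 0.12 in the digoxin samples.

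Type I interferons are secreted when cells sense viral or misplaced nucleic acid, and they act through a receptor made of Ifnar1 and Ifnar2 and the kinases Jak1 and Tyk2. The kinases start a signal that brings Stat2 and Irf9 together in a complex that binds the interferon-stimulated response element (ISRE) in promoters. The genes switched on in this way encode the proteins that degrade viral RNA, block its translation and stop viral entry, assembly and copying. In tumours the same genes are used as a readout of interferon signalling in cancer cells, stroma and immune cells together.

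Promoter sequences are shown because the shared response element is the sequence feature that ties these genes together. The RefSeq promoter table of build GRCm38.p6 held 28 of the 40 genes, with 250 bases before and 50 bases after each start (300 bases in all). The ISRE core, GAAANNGAAA on either strand with overlapping matches allowed, stood in the window of 12 of the 28 genes (42.9%), against 1079 of all 27025 genes in the table (3.99%). The gamma-activated site TTCNNNGAA stood in 7 of the 28 (25%), against 9.55% of all genes. The lines below give, 5′ to 3′ in the gene's direction, the 250 bases before the start of 4 members with an ISRE core and of 2 members without one in the window. Capitals mark the ISRE cores, which read TTTCNNTTTC where they lie on the opposite strand.
Isg15, chr4:156200819-156201068, minus strand: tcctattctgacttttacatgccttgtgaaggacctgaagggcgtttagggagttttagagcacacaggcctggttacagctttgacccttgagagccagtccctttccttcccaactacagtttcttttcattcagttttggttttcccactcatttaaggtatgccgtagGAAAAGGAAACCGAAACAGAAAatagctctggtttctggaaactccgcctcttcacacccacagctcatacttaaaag
Ifit1, chr19:34640639-34640888, plus strand: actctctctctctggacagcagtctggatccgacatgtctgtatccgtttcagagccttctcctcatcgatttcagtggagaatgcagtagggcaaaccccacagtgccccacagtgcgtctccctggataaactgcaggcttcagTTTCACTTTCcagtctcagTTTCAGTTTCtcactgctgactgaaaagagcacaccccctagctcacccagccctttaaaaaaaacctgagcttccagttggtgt
Oas3, chr5:120777660-120777909, minus strand: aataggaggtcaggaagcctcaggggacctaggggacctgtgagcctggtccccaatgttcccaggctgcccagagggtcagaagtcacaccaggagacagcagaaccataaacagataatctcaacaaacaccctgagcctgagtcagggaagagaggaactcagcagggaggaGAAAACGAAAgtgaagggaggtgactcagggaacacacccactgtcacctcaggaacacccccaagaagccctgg
Ifit3, chr19:34583279-34583528, plus strand: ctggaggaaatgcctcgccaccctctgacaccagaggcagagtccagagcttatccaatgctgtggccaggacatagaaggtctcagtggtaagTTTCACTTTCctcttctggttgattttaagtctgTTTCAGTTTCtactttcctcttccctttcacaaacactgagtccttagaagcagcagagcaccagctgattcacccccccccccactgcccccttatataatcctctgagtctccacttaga
Cmpk2, chr12:26468965-26469214, plus strand: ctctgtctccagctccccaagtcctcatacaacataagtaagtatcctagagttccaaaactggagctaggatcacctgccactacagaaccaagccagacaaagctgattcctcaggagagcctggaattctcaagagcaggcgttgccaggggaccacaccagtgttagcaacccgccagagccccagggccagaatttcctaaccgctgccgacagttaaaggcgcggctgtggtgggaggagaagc
Parp12, chr6:39118350-39118599, minus strand: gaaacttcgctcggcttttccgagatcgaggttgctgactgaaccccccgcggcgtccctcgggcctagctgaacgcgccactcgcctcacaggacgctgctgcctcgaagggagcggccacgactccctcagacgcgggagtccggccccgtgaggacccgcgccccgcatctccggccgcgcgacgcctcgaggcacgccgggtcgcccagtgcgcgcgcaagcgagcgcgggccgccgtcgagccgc
The Isg15 promoter held 3 overlapping cores in 1 run that began at position −78 from the start. Ifit1 held cores that began at −104 and −85, Ifit3 held them at −156 and −122, and Oas3 held a single core at −75. The match is a description of letters and not of binding, and no match says only that these letters were not in the window.

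The 9 libraries held 40517062 to 51810956 reads, as recovered from the spacing of the FPKM values, and the least covered member value rested on 88 reads (Ifit3b in vehicle sample 2). On the first principal component of all tested genes (69.4% of the variance), 2 digoxin libraries stood between the vehicle libraries and the other digoxin libraries: sample 2 of the low-dose group and sample 1 of the high-dose group. On the second component (12.4% of the variance), sample 1 of the high-dose group stood far from every other library (−43.9, where the others ran from −1.17 to 19.1). Sample 2 of the low-dose group did not (0.61). Counts over the antiviral genes are given with and without them, and so are some counts over the gene lists and some single genes. Where no second value is given, the count or value is from all 9 samples and may differ without these libraries.

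Most of the antiviral genes were higher in the digoxin tumours at both doses. At the low dose, 38 of the 40 genes rose against vehicle and none fell (limma on log2(FPKM + 1), adjusted p under 0.05 over all 13687 tested genes). Of all tested genes, 42.2% passed in that comparison, 21.6% upwards and 20.7% downwards. At the high dose, 35 of the 40 rose and none fell, where 45.9% of all tested genes passed, 20.7% upwards and 25.2% downwards. The median log2 fold change of the 40 genes was 1.64 at the low dose and 1.53 at the high dose, where the median of all tested genes was 0.02 and −0.04. The rises spanned log2 0.56 (Samd9l) to 3.43 (Isg15) at the low dose and 0.75 (Ifit2) to 3.42 (Isg15) at the high dose, and the log2(FPKM + 1) scale understates the change of genes with low FPKM. Every digoxin sample lay above every vehicle sample for 38 genes at the low dose (32.3% of all tested genes did so) and for 37 genes at the high dose (25.2%). Without the 2 libraries that stood apart, 38 genes rose at the low dose (31.9% of all tested genes) and 35 at the high dose (31.4%), and 1 gene, Parp12, fell at each dose (29.6% and 29.9% of all tested genes). Both comparisons share the 3 vehicle samples. In whole tumours, more cells of a responding type and more RNA per cell cannot be told apart.

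**Figure D1:**
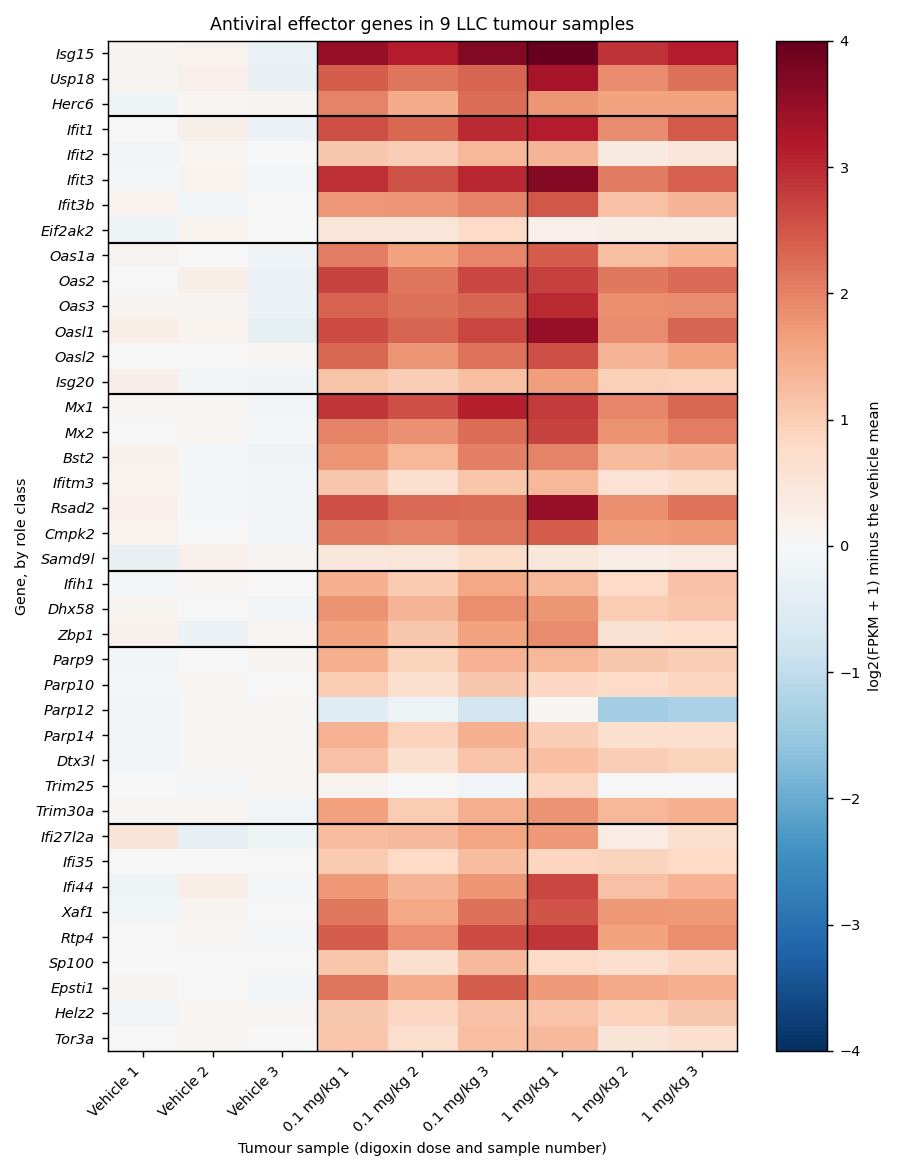
Each row is 1 of the 40 antiviral genes, ordered by role class, and each column 1 tumour sample. Colour gives log2(FPKM + 1) minus the gene's vehicle mean. The 6 digoxin columns are red in nearly every row, and Parp12 is blue in 5 of them. Sample 1 of the high-dose group has the highest value of the 9 samples for 26 genes.

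By the mean over all 9 samples, the most abundant of these transcripts were Ifitm3 and Bst2, restriction factors of viral entry and release, and Isg15 was the third. Ifitm3 averaged 507 FPKM with vehicle, 990.6 at the low dose and 955 at the high dose. The least abundant member by the mean over all samples, the RNA sensor Ifih1, averaged 1.08, 4.30 and 3.46 FPKM in the same order. With vehicle, Mx2 (0.687 FPKM) and Ifit3b (1.06 FPKM) averaged less than Ifih1. Summed over the 40 genes, vehicle samples held 873 to 1027 FPKM, low-dose samples 1987 to 2778 FPKM and high-dose samples 1755 to 3204 FPKM.

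The 3 genes of ISG15 conjugation rose at both doses, with a median log2 fold change of 2.29 at the low dose and 2.47 at the high dose. Isg15 encodes a ubiquitin-like protein that is attached to host and viral proteins and is also secreted. It had 18.3, 18.7 and 13.8 FPKM in the vehicle samples, 198, 155 and 224 FPKM at the low dose and 325, 132 and 156 FPKM at the high dose. All 6 digoxin values lay far above vehicle, and sample 1 of the high-dose group was the highest. The log2 fold change of Isg15 was 3.43 (SE 0.31, adjusted p = 0.000333) at the low dose and 3.42 (SE 0.31, adjusted p = 0.000308) at the high dose, the largest rise of the set at each dose. Usp18, the protease that removes ISG15 from proteins and also damps signalling at the interferon receptor, had 2.58, 2.79 and 1.72 FPKM with vehicle, 16.96, 13.6 and 15.6 FPKM at the low dose and 31.8, 11.4 and 14.5 FPKM at the high dose. The groups of either dose did not overlap vehicle, and the change was log2 2.29 (adjusted p = 0.00148) at the low dose and 2.47 (adjusted p = 0.000976) at the high dose. Herc6, the ligase that attaches ISG15 in mice, had 1.34, 1.78 and 1.84 FPKM with vehicle, 9.35, 6.41 and 11.5 FPKM at the low dose and 7.99, 7.05 and 7.14 FPKM at the high dose. Its rise was log2 1.901 (adjusted p = 0.000393) at the low dose and 1.67 (adjusted p = 0.000518) at the high dose, and here the highest sample was number 3 of the low-dose group.

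Genes that block translation of foreign RNA rose unevenly: the 4 IFIT genes passed the test at both doses, and the kinase Eif2ak2 passed at the low dose. IFIT proteins bind RNA ends that lack the host cap marks. Ifit1, which binds such RNA directly, had 3.19, 3.92 and 2.54 FPKM with vehicle, 23.8, 19.3 and 32.1 FPKM at the low dose and 36.1, 14.6 and 21.8 FPKM at the high dose. Its log2 fold change was 2.61 (adjusted p = 0.000792) at the low dose and 2.501 (adjusted p = 0.000784) at the high dose. Ifit3, its partner in the complex, had 5.68, 6.56 and 5.45 FPKM with vehicle, 50.8, 39.5 and 54.4 FPKM at the low dose and 87.5, 28.1 and 35.2 FPKM at the high dose. The change was log2 2.83 and 2.72 at the lower and the higher dose (adjusted p = 0.00105 and 0.000997), and both dose groups stood clear of vehicle. The near-identical copy Ifit3b was at a lower level, with 1.27, 0.879 and 1.01 FPKM with vehicle, 5.81, 5.95 and 7.18 FPKM at the low dose and 10.5, 3.59 and 4.31 FPKM at the high dose. It rose by log2 1.83 (adjusted p = 0.00272) at the low dose and 1.67 (adjusted p = 0.00313) at the high dose. Reads of Ifit3 and Ifit3b can be exchanged by the authors' counting, so their separate levels are uncertain. Ifit2 changed least of the 4, by log2 1.12 (adjusted p = 0.00704) at the low dose and 0.75 (adjusted p = 0.0303) at the high dose. At the high dose Ifit2 no longer passed when any 1 of the 3 vehicle samples was dropped (adjusted p up to 0.0872).

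Eif2ak2 encodes PKR, which halts translation when it binds double-stranded RNA. It had 6.81, 8.55 and 7.88 FPKM with vehicle, 11.2, 11.2 and 13.9 FPKM at the low dose and 9.01, 9.35 and 9.49 FPKM at the high dose. The 3 groups did not overlap, with vehicle lowest and the low-dose samples highest. Its rise of log2 0.58 passed at the low dose (adjusted p = 0.00445), and the difference of 0.24 at the high dose did not (adjusted p = 0.0995).

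All 6 genes of the 2′-5′-oligoadenylate (OAS) family and RNA decay rose at both doses, with medians of log2 2.19 at the low dose and 2.04 at the high dose. OAS enzymes make an oligoadenylate that activates RNase L, which cuts RNA. Oas2 had 4.02, 4.81 and 3.19 FPKM with vehicle, 31.3, 20.8 and 30.5 FPKM at the low dose and 31.9, 20.3 and 22.9 FPKM at the high dose. Its log2 fold change of 2.501 at the low dose and 2.37 at the high dose (adjusted p = 0.000273 and 0.000272) had a standard error of 0.21 at each dose. Oas3, the large family member that senses long double-stranded RNA, had 1.41, 1.44 and 0.926 FPKM with vehicle, 10.5, 9.396 and 10.2 FPKM at the low dose and 16.9, 7.07 and 7.32 FPKM at the high dose. It rose by log2 2.296 (adjusted p = 0.000919) at the low dose and 2.24 (adjusted p = 0.000832) at the high dose. Oasl2, an OAS-like protein, had 5.78, 5.89 and 6.08 FPKM with vehicle, 33.1, 22.7 and 30.04 FPKM at the low dose and 40.2, 16.8 and 19.9 FPKM at the high dose. The vehicle values were within a narrow band and every digoxin value lay above them (log2 2.08 at the low dose and 1.85 at the high dose, adjusted p = 0.00132 and 0.0017001). Oas1a rose by log2 1.87 at the low dose and 1.68 at the high dose, and its separate level is uncertain because mice carry several near-identical Oas1 genes. Oasl1 rose by 2.54 and 2.57 at the lower and the higher dose. The exonuclease gene Isg20, which is not an OAS gene, rose least in this class, by 1.11 and 1.18.

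Of the 7 genes that restrict viral entry, assembly and replication, 7 rose at the low dose and 6 at the high dose (medians log2 2.01 and 1.92). Mx1 encodes a dynamin-like GTPase that traps viral nucleocapsids, and the C57BL/6 strain is known to carry damaged Mx1 and Mx2 genes; the RefSeq gene table lists both as transcribed pseudogenes. Its transcript had 1.902, 1.796 and 1.51 FPKM with vehicle, 18.9, 15.4 and 22.7 FPKM at the low dose and 18.1, 9.67 and 12.3 FPKM at the high dose. Mx1 rose by log2 2.86 (SE 0.21, adjusted p = 0.000221) at the low dose and 2.35 (SE 0.21, adjusted p = 0.000291) at the high dose, and had the smallest p of the set in the first of these comparisons. Mx2 had 0.677, 0.791 and 0.593 FPKM with vehicle, 5.599, 4.95 and 6.896 FPKM at the low dose and 9.95, 4.84 and 5.94 FPKM at the high dose. Its change was log2 2.01 (adjusted p = 0.0006) at the low dose and 2.18 (adjusted p = 0.000423) at the high dose, although the ratio of mean FPKM was 8.46 and 10.1, since 1 was added to values below 1 FPKM. Cmpk2, a mitochondrial nucleotide kinase next to Rsad2 on chromosome 12, had 1.9997, 1.68 and 1.498 FPKM with vehicle, 10.4, 9.76 and 11.1 FPKM at the low dose and 13.4, 7.58 and 7.87 FPKM at the high dose. It rose by log2 2.07 (adjusted p = 0.000344) at the low dose and 1.92 (adjusted p = 0.000404) at the high dose, without an ISRE core in the window shown above. Rsad2 (viperin), which makes a chain-terminating nucleotide, rose by 2.36 and 2.51 at the lower and the higher dose, Bst2 (tetherin) by 1.696 and 1.53, and Ifitm3 by 0.95 and 0.88.

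Samd9l, an inhibitor of translation and of poxvirus replication, was the exception of this class. It had 11.9, 17.04 and 15.9 FPKM with vehicle, 20.7, 21.3 and 25.1 FPKM at the low dose and 20.8, 18.1 and 18.8 FPKM at the high dose. Every digoxin sample lay above every vehicle sample, but the distances were small. Its rise of log2 0.56 passed at the low dose (adjusted p = 0.0116), and the difference of 0.36 at the high dose did not (adjusted p = 0.0556).

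The 3 nucleic acid sensors of the set rose at both doses, with medians of log2 1.43 at the low dose and 1.08 at the high dose. Dhx58 (LGP2), a helicase that tunes RNA sensing, had 3.37, 3.05 and 2.78 FPKM with vehicle, 13.04, 9.49 and 13.7 FPKM at the low dose and 12.7, 7.25 and 7.75 FPKM at the high dose (log2 1.67 and 1.29 at the lower and the higher dose, adjusted p = 0.000939 and 0.00196). Ifih1 (MDA5), which senses long double-stranded RNA, had 0.994, 1.17 and 1.08 FPKM with vehicle, 4.61, 3.27 and 5.03 FPKM at the low dose and 4.18, 2.51 and 3.69 FPKM at the high dose (log2 1.33 and 1.08, adjusted p = 0.00119 and 0.00215). All digoxin values of both genes were above vehicle. Zbp1, a sensor of Z-form nucleic acid that can start necroptosis, had 14.9, 10.9 and 13.8 FPKM with vehicle, 42.04, 28.8 and 41.8 FPKM at the low dose and 51.5, 20.3 and 21.8 FPKM at the high dose. It rose by log2 1.43 (adjusted p = 0.00944) at the low dose and 1.06 (adjusted p = 0.0268) at the high dose. The high-dose rise of Zbp1, too, did not pass without any 1 of the 3 vehicle samples (adjusted p up to 0.0894).

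**Figure D2:**
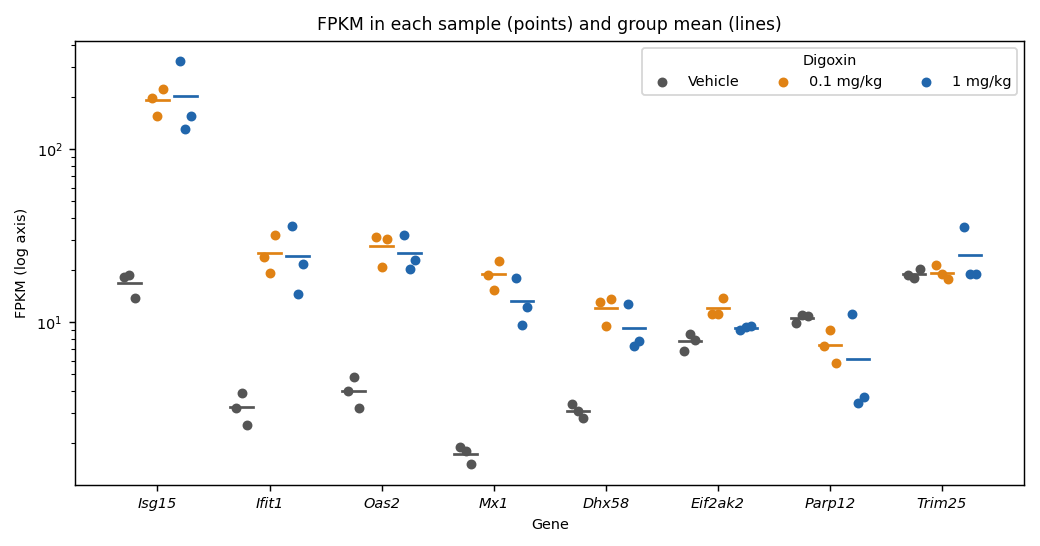
FPKM on a log axis for 8 of the antiviral genes, 1 point per sample and a line at each group mean, with vehicle, low dose and high dose from left to right within a gene. Isg15, Ifit1, Oas2, Mx1 and Dhx58 have all 6 digoxin points above the vehicle points, Eif2ak2 shows a small step, and Parp12 and Trim25 do not rise.

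The PARP and ubiquitin ligase genes were the least uniform class: 5 of 7 rose at each dose (medians log2 0.97 at the low dose and 0.82 at the high dose), and Parp12 and Trim25 passed at neither. Parp10, which attaches single ADP-ribose units, had 20.5, 22.4 and 21.2 FPKM with vehicle, 44.5, 33.9 and 46.3 FPKM at the low dose and 38.6, 37.1 and 39.2 FPKM at the high dose (log2 0.92 and 0.82 at the lower and the higher dose, adjusted p = 0.000954 and 0.00119). Parp9 works in a complex with the ligase Dtx3l. It had 7.27, 8.13 and 8.69 FPKM with vehicle, 23.2, 15.6 and 22.7 FPKM at the low dose and 21.5, 18.04 and 16.9 FPKM at the high dose, a rise of log2 1.23 and 1.13 (adjusted p = 0.00109 and 0.00121). Parp14, a large macrodomain protein, had 5.43, 6.13 and 6.15 FPKM with vehicle, 17.02, 11.95 and 17.4 FPKM at the low dose and 12.7, 9.69 and 10.04 FPKM at the high dose (log2 1.24 and 0.77, adjusted p = 0.000979 and 0.00474). Parp14, Dtx3l and Parp9 lie side by side on chromosome 16, and Dtx3l rose by 0.97 at the low dose and 1.02 at the high dose. Trim30a, a ubiquitin ligase of the TRIM family with close copies in mice, rose by 1.36 and 1.52 at the lower and the higher dose.

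Parp12, an ADP-ribosyltransferase that inhibits translation in infected cells, lay below vehicle in 5 of the 6 digoxin samples. It had 9.85, 11.1 and 10.9 FPKM with vehicle, 7.32, 9.04 and 5.82 FPKM at the low dose and 11.2, 3.42 and 3.69 FPKM at the high dose. All low-dose samples and samples 2 and 3 of the high-dose group were below vehicle, and sample 1 of the high-dose group was above it. With all samples the log2 difference was −0.48 at the low dose (adjusted p = 0.283) and −0.87 at the high dose (adjusted p = 0.0677). Without the 2 libraries that stood apart Parp12 fell by 0.62 on the log2 scale at the low dose (adjusted p = 0.00131) and by 1.35 at the high dose (adjusted p = 3.58e-05). Its promoter window, printed above, held neither an ISRE core nor a gamma-activated site. Trim25, the ligase that activates the RNA sensor RIG-I, had 18.8, 18.1 and 20.3 FPKM with vehicle, 21.3, 19.04 and 17.8 FPKM at the low dose and 35.4, 18.98 and 18.99 FPKM at the high dose. Only sample 1 of the high-dose group stood above the rest. The 95% interval of the log2 difference ran from −0.46 to 0.50 at the low dose and from −0.20 to 0.76 at the high dose, and the sign of the estimate changed with the scaling and with the samples left out.

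Among the 9 remaining interferon-stimulated genes, 9 rose at the low dose and 8 at the high dose (medians log2 1.38 and 1.04). Helz2, a helicase and transcriptional coactivator, had 6.39, 7.47 and 7.32 FPKM with vehicle, 15.9, 13.4 and 17.3 FPKM at the low dose and 16.6, 14.3 and 15.9 FPKM at the high dose, close to the same rise at both doses (log2 1.03 and 1.04, adjusted p = 0.000534 and 0.000464). Ifi35, a leucine-zipper protein, had 17.2, 17.2 and 17.1 FPKM with vehicle, 36.9, 30.5 and 42.1 FPKM at the low dose and 32.2, 32.9 and 30.6 FPKM at the high dose (log2 1.03 and 0.85, adjusted p = 0.000534 and 0.000895). Vehicle values of Ifi35 were nearly equal, and no digoxin value came near them. Epsti1, named for its induction by stroma in breast epithelium, had 5.24, 4.65 and 4.33 FPKM with vehicle, 24.4, 14.98 and 29.9 FPKM at the low dose and 17.8, 15.5 and 14.8 FPKM at the high dose. It rose by log2 2.02 (adjusted p = 0.000558) at the low dose and 1.57 (adjusted p = 0.00115) at the high dose. Rtp4, a chaperone of G protein-coupled receptors, rose by 2.29 and 2.11 at the lower and the higher dose, the apoptosis-related Xaf1 by 1.96 and 1.98, and Ifi44 by 1.62 and 1.74. The nuclear body gene Sp100 (1.02 and 0.76) and the torsin-family ATPase gene Tor3a (1.01 and 0.82) rose less.

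Ifi27l2a encodes a small membrane protein of mitochondria. It had 80.1, 44.8 and 49.5 FPKM with vehicle, 135, 141 and 171 FPKM at the low dose and 188, 68.7 and 88.2 FPKM at the high dose. The low-dose samples lay above vehicle, and the high-dose group overlapped it. The rise of log2 1.38 at the low dose passed with all samples (adjusted p = 0.0151) but in 3 of the 9 fits without 1 sample it did not, those without vehicle sample 2, vehicle sample 3 or low-dose sample 3 (adjusted p up to 0.0584). The difference of 0.88 at the high dose did not pass (adjusted p = 0.0688).

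**Figure D3:**
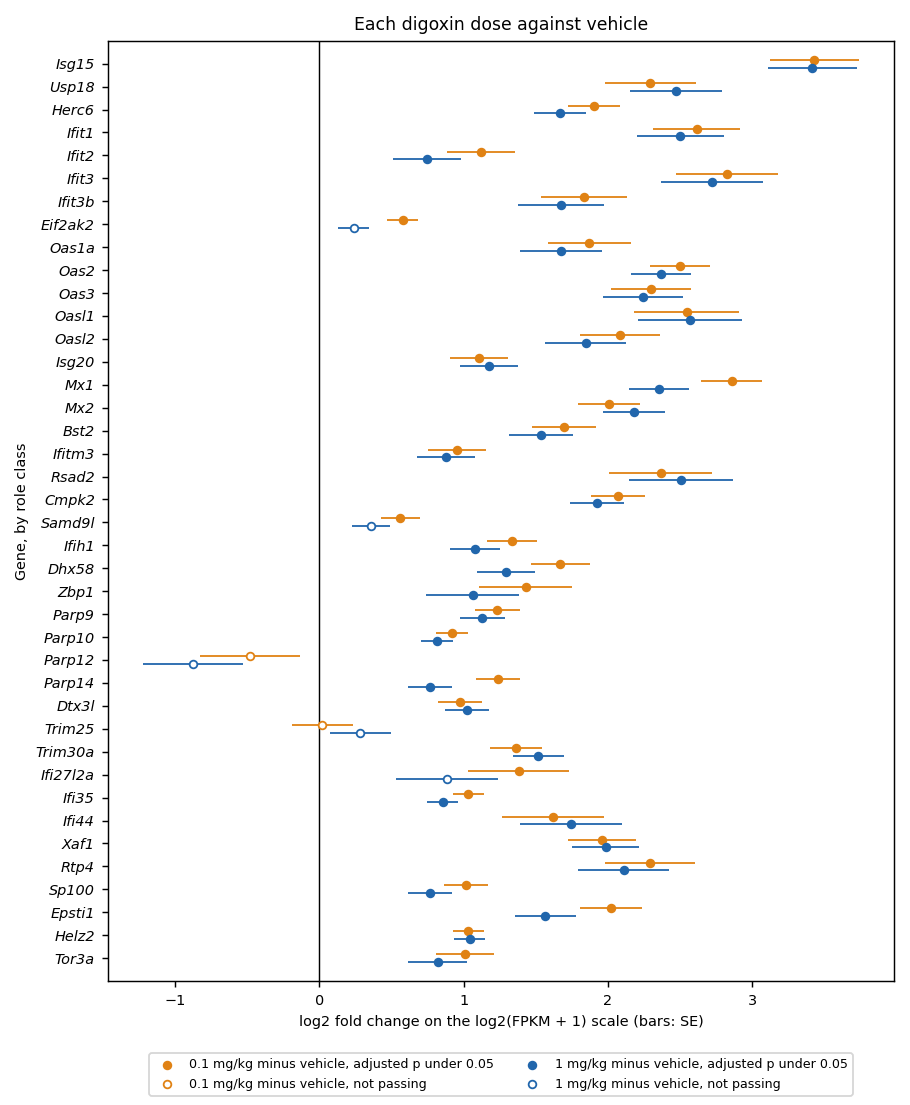
Log2 fold change on the log2(FPKM + 1) scale (points, with SE bars) of each antiviral gene at 0.1 mg/kg (low dose) and 1 mg/kg (high dose) against vehicle. Filled points passed an adjusted p of 0.05. The 2 unfilled points at the low dose are Parp12 and Trim25, which are joined at the high dose by Eif2ak2, Samd9l and Ifi27l2a.

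Set directly against each other, the doses did not differ for any of the 40 genes by the test: 0 passed for the high against the low dose, where 2 of all 13687 genes did (0.0146%, both lower at the high dose). At an unadjusted p under 0.05 there were 3, and limma-voom on the recovered reads also called 0. The median difference was log2 −0.15 (all tested genes −0.05), with 11 genes higher and 29 lower at the high dose, and the 95% intervals of single genes together spanned −1.30 to 0.96. The smallest p belonged to Eif2ak2 (log2 −0.34, 95% interval −0.58 to −0.096, adjusted p = 0.236), whose high-dose values all lay below the low-dose values (11.0% of all tested genes did so, and 6.05% lay wholly above). Parp14 (−0.47, interval −0.81 to −0.12, adjusted p = 0.245) and Mx1 (−0.504, interval −0.98 to −0.03, adjusted p = 0.343) followed. Epsti1 (−0.45), Sp100 (−0.25) and Dhx58 (−0.38) had intervals that reached 0.

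The difference between the doses turned on the 2 libraries that stood apart, which were chosen with earlier results of these data known. Sample 1 was the highest of the high-dose group for 36 of the 40 genes and sample 2 was the lowest of the low-dose group for 34, so leaving both out moves the difference downwards by construction. All 40 genes were then lower at the high dose than at the low dose, with a median of log2 −0.50 and a range of −0.96 (Zbp1) to −0.03 (Trim25), and 13 of them fell by the test. Of all tested genes, 2.44% fell and 0.957% rose in that comparison. The 13 were Ifit2, Ifit3, Mx1, Oas1a, Oasl2, Dhx58, Zbp1, Parp12, Parp14, Xaf1, Rtp4, Epsti1 and Tor3a. This fit compared 2 samples of each dose, and the spread was pooled with the vehicle group. Dhx58 fell by 0.76 on the log2 scale (adjusted p = 0.00924) and Parp14 by 0.74 (adjusted p = 0.00661). In the samples that remained, Dhx58 had 7.25 and 7.75 FPKM at the high dose (samples 2 and 3). At the low dose it had 13.0 and 13.7 FPKM (samples 1 and 3). With the 2 samples left out, whose values are given above, the doses overlapped for Dhx58. These values come from the same choice of samples and add no separate evidence.

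**Figure D4:**
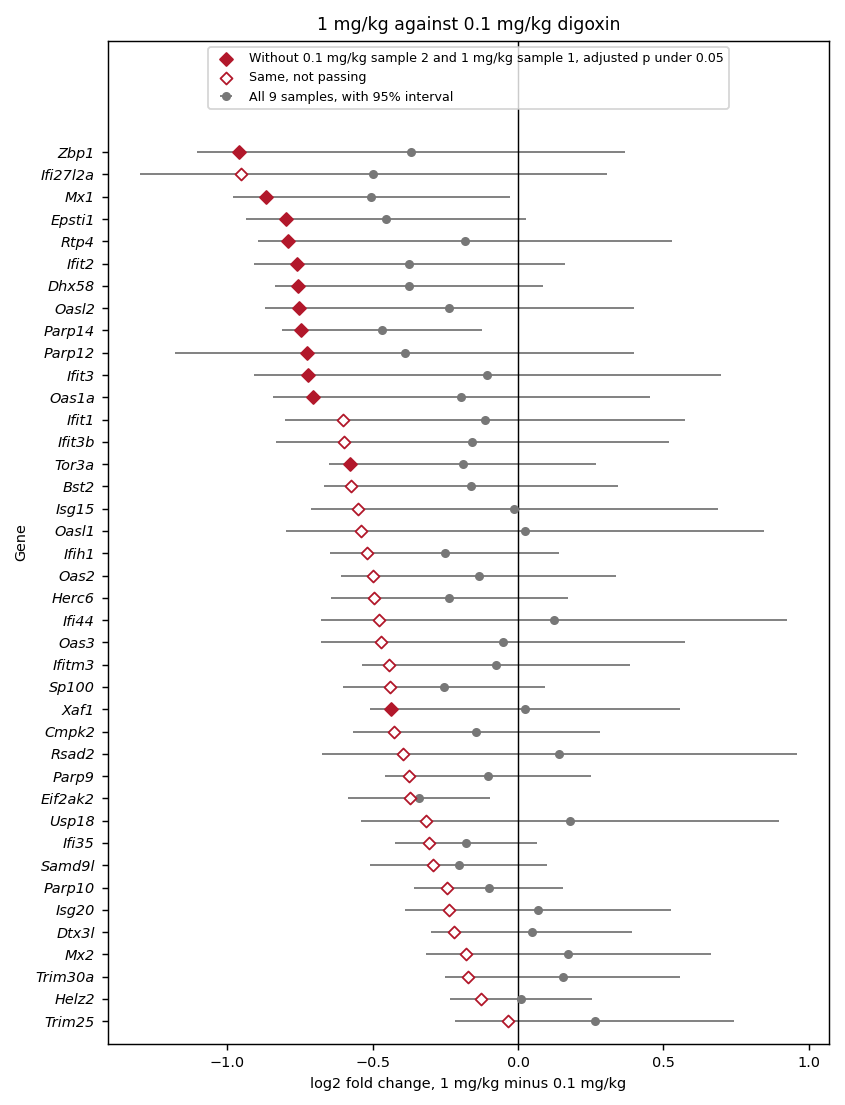
Log2 difference of the high dose (1 mg/kg) minus the low dose (0.1 mg/kg) for each antiviral gene. Grey points with 95% intervals use all 9 samples; red diamonds leave out sample 2 of the low-dose group and sample 1 of the high-dose group, and 13 of them are filled because they passed the test. All 40 diamonds lie left of 0, while the grey points lie on both sides.

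Sample 1 of the high-dose group carried the highest FPKM of all 9 libraries for 26 of the 40 genes (65.0%), against 8.99% of all tested genes. Its ratio to the mean of samples 2 and 3 of the same dose had a median of 1.72 over the 40 genes, where the median over tested genes was 0.92. The ratio was highest for Parp12 (3.15), Ifi44 (3.03) and Rsad2 (2.91), and near 1 for Parp10 (1.01), Ifi35 (1.02), Sp100 (0.986) and Eif2ak2 (0.956). Sample 2 was the lowest of the low-dose group for 85.0% of the antiviral genes and for 40.3% of all tested genes. The antiviral transcripts in it were nonetheless well above vehicle, with a median of log2 1.34 over the vehicle mean, against 1.74 and 1.81 in the other libraries of the dose. At the high dose the medians were 1.79 in sample 1, 1.16 in sample 2 and 1.36 in sample 3.

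Transcripts of the interferons themselves were close to absent. Of 20 type I and III interferon genes, 11 were in the table and none reached the filter. Recovered reads over these 11 genes numbered 6, 12 and 7 with vehicle, 9, 17 and 5 at the low dose and 19, 8 and 10 at the high dose. Ifnb1, the interferon-beta gene, had 1, 0 and 0 reads with vehicle, 5, 0 and 3 reads at the low dose and 10, 4 and 6 reads at the high dose, too few for the test.

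Of 7 transcription factor genes of the pathway, most rose too: 7 at the low dose (21.6% of all tested genes) and 5 at the high dose (20.7%). At the high dose Irf3 did not pass with all samples (log2 0.50, adjusted p = 0.0794). It did without the 2 libraries that stood apart (log2 0.77, adjusted p = 0.000156), where 31.4% of all tested genes rose. Irf7, the factor that amplifies interferon production, had 9.29, 8.31 and 6.63 FPKM with vehicle, 86.9, 73.6 and 110.5 FPKM at the low dose and 165, 52.9 and 60.96 FPKM at the high dose. Its rise of log2 3.32 and 3.19 at the lower and the higher dose (adjusted p = 0.000762 and 0.000761) was of the size of Isg15's, and the ratio of sample 1 to samples 2 and 3 at the high dose was 2.91. Other pathway factors rose less: Stat2 by 1.74 and 1.53 (adjusted p = 0.00222 and 0.00292) and Irf9 by 0.85 and 0.77 (adjusted p = 0.0112 and 0.0143). Irf1 rose by 1.39 and 1.21 at the lower and the higher dose. Irf8, a factor of myeloid and dendritic cells, rose by 0.74 at the low dose (adjusted p = 0.00405) and differed by 0.12 at the high dose (adjusted p = 0.474). None of the 7 differed between the doses with all samples. Without the 2 libraries that stood apart 4 were lower at the high dose (2.44% of all tested genes).

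Receptor and sensor genes upstream had calls in both directions. So had all tested genes: 21.6% rose and 20.7% fell at the low dose, and 20.7% and 25.2% at the high dose. Of 7 tested receptor and Janus kinase genes, 3 rose and 1 fell at the low dose, and 2 rose and 1 fell at the high dose. The counts at the high dose were near the shares of all tested genes. These counts rest on single samples: without any 1 of the vehicle samples, or without sample 1 or 3 of the low-dose group, only Jak2 rose at the low dose, and at the high dose 1 to 3 rose with 1 sample left out. Ifnar1 rose by log2 0.49 and 0.46 at the lower and the higher dose (adjusted p = 0.0208 and 0.0247) and Jak2 by 0.64 and 0.62, while the interferon-gamma receptor gene Ifngr1 had negative changes of −0.43 and −0.505 (adjusted p = 0.0337 and 0.0171). Ifnar2 differed by 0.25 (adjusted p = 0.0598) and 0.15 (adjusted p = 0.2304). Without the 2 libraries that stood apart Ifnar2 rose by 0.35 at the low dose (adjusted p = 0.00206) and differed by 0.14 at the high dose (adjusted p = 0.0898). Tyk2 rose at the high dose in that setting (0.49, adjusted p = 0.000658) and did not with all samples (0.31, adjusted p = 0.106). Of 14 tested sensing genes, 8 rose and 2 fell at the low dose, and 5 rose and 3 fell at the high dose. With 1 sample left out, 3 to 8 rose at the low dose (3 without vehicle sample 1, low-dose sample 1 or low-dose sample 3) and 2 to 6 at the high dose (2 without vehicle sample 1 or high-dose sample 2). Without the 2 libraries that stood apart every call of a sensing gene held, and others were added. Those were Myd88 (0.22, adjusted p = 0.0187) and Mavs (−0.39, adjusted p = 0.00073) at the low dose, and Ikbke (0.43, adjusted p = 0.000879) and Tlr3 (0.38, adjusted p = 0.0249) at the high dose. The DNA sensor gene Cgas, named here after its values were seen, had 0.573, 0.727 and 0.697 FPKM with vehicle, 1.53, 1.17 and 1.96 FPKM at the low dose and 0.969, 1.45 and 1.33 FPKM at the high dose. It rose at both doses (log2 0.61 and 0.43, adjusted p = 0.0123 and 0.0414), and the ratio of mean FPKM was 2.34 and 1.87; the call at the high dose was lost in 6 of the 9 fits without 1 sample. Sting1, the adaptor of DNA sensing, was among those that fell, with 36.3, 36.6 and 34.5 FPKM with vehicle, 26.4, 26.6 and 23.8 FPKM at the low dose and 20.6, 19.6 and 20.1 FPKM at the high dose (log2 −0.47 and −0.802, adjusted p = 0.00182 and 0.000248). The ligase adaptor Traf3 fell as well (−0.52 and −0.599), and the nucleotide hydrolase Samhd1 (0.78 and 0.39) and the RNA sensor Tlr7 (0.75 and 0.53) rose at both doses. Of the 7 feedback genes, 4 rose and 1 fell at the low dose and 2 rose and 1 fell at the high dose; Usp18, counted here too, and Socs3 (0.86 and 1.303) rose at both. At the high dose 5 feedback genes rose without the 2 libraries that stood apart (31.4% of all tested genes did), and 4 without high-dose sample 1 alone.

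Genes preferentially driven by interferon gamma, the type II interferon of T and NK cells, rose at the low dose in 5 of 6 tested cases. At the high dose 4 of 6 rose and 1, Ciita, fell. Of all tested genes 21.6% rose at the low dose, and 20.7% rose and 25.2% fell at the high dose. Igtp, an immunity-related GTPase, had 11.6, 10.5 and 12.6 FPKM with vehicle, 104, 63.6 and 137 FPKM at the low dose and 69.9, 55.8 and 47.2 FPKM at the high dose (log2 2.96 and 2.21, adjusted p = 0.000287 and 0.000675). Cxcl9, a chemokine for T cells, had 8.08, 7.005 and 10.7 FPKM with vehicle, 73.1, 29.8 and 90.7 FPKM at the low dose and 4.05, 25.3 and 9.0999 FPKM at the high dose. It rose at the low dose (log2 2.65, adjusted p = 0.008504), and at the high dose the groups overlapped (log2 0.22, adjusted p = 0.777). The difference between the doses for Cxcl9 was log2 −2.43, the largest of this list, and did not pass (adjusted p = 0.151). Cxcl9 passed without the 2 libraries that stood apart, with a difference of −2.34 between the doses (adjusted p = 0.027). In that setting 5 of the 6 genes of the list were lower at the high dose (2.44% of all tested genes). None were with all samples, and 3 were without low-dose sample 2 alone. Nos2, the inducible nitric oxide synthase gene, had 7.8997, 4.53 and 4.196 FPKM with vehicle, 55.001, 24.8 and 23.98 FPKM at the low dose and 176, 39.3 and 43.05 FPKM at the high dose, a rise of log2 2.38 and 3.42 (adjusted p = 0.0112 and 0.00233). Ciita had 0.886, 1.11 and 1.58 FPKM with vehicle and 1.78, 0.984 and 2.26 FPKM at the low dose. At the high dose it had 0.218, 0.452 and 0.264 FPKM, a change of log2 −0.73 (adjusted p = 0.0184). That call was lost in 2 of the 9 fits without 1 sample. The change of 0.27 at the low dose did not pass (adjusted p = 0.303). Ifng itself, below the filter, had 0.222, 0.139 and 0.119 FPKM with vehicle, 1.12, 0.593 and 1.21 FPKM at the low dose and 0.1097, 0.247 and 0.152 FPKM at the high dose. In reads these were 14, 9 and 8, then 62, 33 and 68, then 6, 13 and 8. The order of its vehicle and high-dose samples thus rests on few reads. Sample 1 of the high-dose group, the highest for most antiviral genes, was the lowest of all 9 for both Ifng and Cxcl9, the highest of all 9 for Nos2 and the highest of its dose for Gbp2, Irgm1 and Igtp.

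Markers of several immune cell types were set beside the antiviral genes. Of all tested genes, 21.6% rose and 20.7% fell at the low dose, and 20.7% rose and 25.2% fell at the high dose. Without the 2 libraries that stood apart, 31.9% rose and 29.6% fell at the low dose, and 31.4% and 29.9% at the high dose. In that setting 2.44% were lower at the high than at the low dose. Counts near these shares do not set a list apart from other genes. T cell markers rose at the low dose in 6 of 7 tested cases and at the high dose in 0 of 7, and the difference between the doses passed for 0 of the 7. Without any 1 of the vehicle samples, or without sample 1 or 3 of the low-dose group, the T cell receptor gene Trbc1 was the 1 marker that still rose at the low dose. Without the 2 libraries that stood apart 6 rose at the low dose and 1 at the high dose, and 5 were lower at the high than at the low dose. Their summed level was 20.5 to 25.5 FPKM in vehicle samples, 43.0 to 73.6 FPKM at the low dose and 8.75 to 30.9 FPKM at the high dose, with sample 1 of the high-dose group lowest. Of 9 macrophage markers, 4 rose and 0 fell at the low dose, and 3 rose and 2 fell at the high dose, with sums of 1201 to 1286 FPKM in vehicle samples, 1561 to 2411 FPKM at the low dose and 920.0 to 1588 FPKM at the high dose. With 1 sample left out, 2 to 7 macrophage markers rose at the low dose (2 without vehicle sample 3 or low-dose sample 3, 7 without low-dose sample 2) and 1 to 3 at the high dose (1 without vehicle sample 3). Without the 2 libraries that stood apart 7 and 3 rose, and 4 were lower at the high than at the low dose. Of 6 pan-leukocyte markers, 3 rose at the low dose and 1 at the high dose (sums of 230 to 268, 269 to 400 and 272 to 288 FPKM in vehicle, low-dose and high-dose samples). Neutrophil markers rose in 4 of 7 cases at the low dose and in 6 of 7 at the high dose, with sums of 50.2 to 181 FPKM in vehicle samples, 127 to 768 FPKM at the low dose and 502 to 1162 FPKM at the high dose; without vehicle sample 3 the count at the low dose was 1. Of 8 markers of plasmacytoid dendritic cells, the cells known for high interferon output, 3 were tested: 0 rose and 1 fell at the low dose, and 1 rose and 1 fell at the high dose. The 1 that rose, Cox6a2, which is also a muscle transcript, changed by log2 2.49 (adjusted p = 0.0216) and lost the call in 4 of the 9 fits without 1 sample, and Tcf4 fell at both doses. Their summed level was 15.8 to 16.7 FPKM in vehicle samples, 18.3 to 22.6 FPKM at the low dose and 14.7 to 47.7 FPKM at the high dose. The defining genes Siglech (0.00608 to 0.328 FPKM) and Ccr9 (0.00721 to 0.0455 FPKM) were near 0 in all 9 samples, though every digoxin value of Siglech lay above every vehicle value. NK cell markers rose in 2 of 2 tested cases at the low dose and 1 of 2 at the high dose, B cell markers in 2 of 3 at each dose, and endothelial markers in 0 of 6. The counts of endothelial markers that rose were 2 at the low dose and 4 at the high dose when the 2 libraries that stood apart were left out. Of 5 fibroblast markers, 2 rose and 2 fell at the low dose, and 1 rose and 3 fell at the high dose. Skeletal muscle transcripts ranged from 28.5 to 94.6 FPKM in sum in vehicle samples, 127 to 265 FPKM at the low dose and 40.5 to 882 FPKM at the high dose, with 1 of 5 tested markers higher at each dose and 5 of 5 at each dose without the 2 libraries that stood apart. The part of these cell types in the antiviral values was not tested. In sample 1 of the high-dose group, where 26 antiviral genes were highest, the summed T cell and macrophage markers were the lowest of all 9 libraries. In the same sample the pan-leukocyte sum was 286 FPKM and the neutrophil sum 502 FPKM, each above every vehicle sample. Only 2 of the 6 pan-leukocyte markers lay above their vehicle mean in it, with a median of log2 −0.08, so that sum does not stand for the list. All 7 neutrophil markers did, with a median of log2 2.34.

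**Figure D5:**
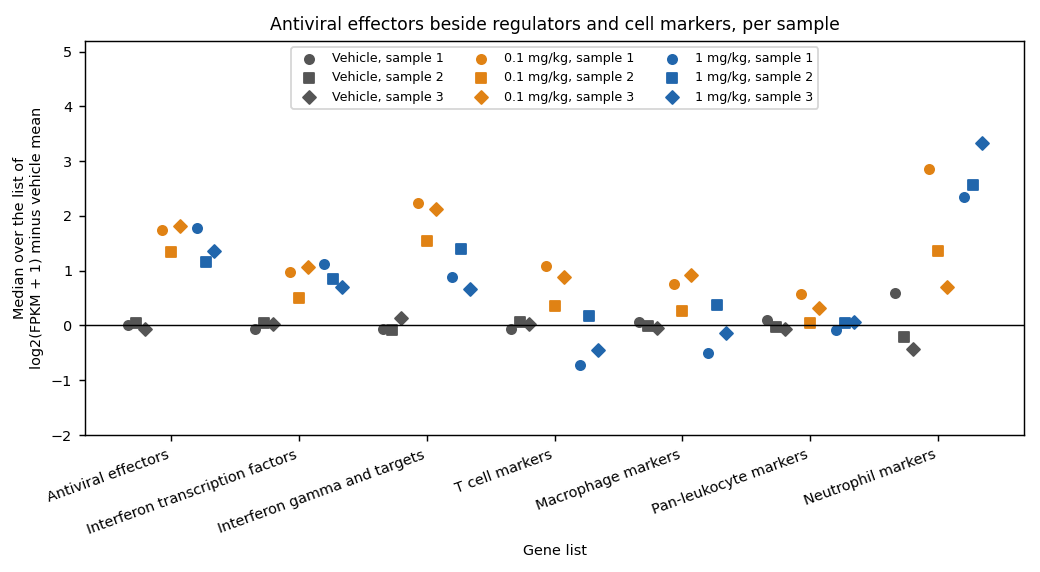
Median over each gene list of log2(FPKM + 1) minus the vehicle mean, 1 point per sample, with vehicle in grey, 0.1 mg/kg in orange and 1 mg/kg in blue. Antiviral effectors are raised in all 6 digoxin samples (medians 1.16 to 1.81), and T cell and macrophage medians of sample 1 at the high dose lie below 0 (−0.73 and −0.51). The pan-leukocyte and neutrophil medians of that sample are −0.08 and 2.34.

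Of the 40 genes, 15 lie within 2 protein-coding genes of another member. Neighbours did not always share the size of their response. In the chromosome 19 cluster, Ifit2, Ifit3, Ifit3b and Ifit1 rose by log2 1.12, 2.83, 1.83 and 2.61 at the low dose. On chromosome 5, the adjacent Oas2 and Oas3 rose by 2.501 and 2.296 and the adjacent Oasl2 and Oasl1 by 2.08 and 2.54. Members with an ISRE core in the promoter window had a median rise of log2 1.85 at the low dose and 1.67 at the high dose (12 genes), against 1.12 and 1.11 for the 16 members without one; the ranges overlapped widely, and no test was made over these chosen genes.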

How the data were processed

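Poly(A) RNA of 9 tumour samples was sequenced as read pairs, per the labels' protocols. The deposited values were FPKM per gene, made by the authors. The submitters' processing notes name fastp 0.22.0, HISAT2 2.2.1 and a human genome build, although the gene symbols are those of mouse, so no coordinates of the table were used. The sources used here name neither the counter nor the annotation. Library depth was recovered from the spacing of the FPKM values, with a whole length per gene; within 0.03 reads, 99.92% of tested genes came out whole in all samples. Vehicle libraries held 48649867 to 51810956 reads, low-dose libraries 42870997 to 43319883 and high-dose libraries 40517062 to 42252370.

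The deposited FPKM values were transformed to log2(FPKM + 1). The filter kept genes that reached 1 FPKM in 3 or more of the 9 libraries. They were tested with limma 3.58.1 (R 4.3.3), using 1 mean per group, all 9 samples, a mean-variance trend, no replicate block, two-sided moderated tests, and Benjamini-Hochberg adjustment over 13687 genes with a threshold of 0.05. Either dose was compared with vehicle, and the high with the low dose. Intervals are 95%. The members, pathway lists and marker lists were chosen with earlier results of these data known, so their counts are descriptions beside the background of all tested genes. 1 gene was left out of the pathway lists and is not reported here. Values in every sample are given for the 3 genes with the smallest p of each role class at the low dose and for every gene with no call, a lower value or calls that differ. Promoters were from RefSeq, build GRCm38.p6. The limma fit was checked on simulated data with known changes. Alternatives were other pseudocounts, filters, scalings, variance models, a 2-fold threshold, a replicate block and samples left out; limma-voom on the recovered reads was added after seeing the data. Python 3.11.15 was used for the rest.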

Additional observations from a re-analysis of the deposited data

How the results depend on the processing

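The number of antiviral genes that rose stayed within 1.5 times of 38 (0.1 mg/kg) and 35 (1 mg/kg) in every alternative run. The number that fell against vehicle was 0, or 1 (Parp12) at the low dose when only the 2 groups compared were fitted, without sample 1 of the high-dose group or without both libraries that stood apart, and at the high dose without that sample, without both libraries or with limma-voom; leaving out 1 sample at a time gave 0 to 1. The median log2 fold change of the antiviral genes at the low dose was 1.90 with a pseudocount of 0.1, 1.96 with 0.01 and 1.97 with limma-voom, against 1.64. Over all tested genes, the calls at the low dose against vehicle (5781) were 1222 with a 2-fold threshold and 3414 to 7074 with 1 sample left out. Those at the high dose (6277) were 4159 when the filter was a mean of 5 FPKM, 1369 with a 2-fold threshold and 4129 to 7373 with 1 sample left out. Between the doses, 2 genes passed, and 0 with either smaller pseudocount or with only the 2 groups, 1 with the filter at 5 FPKM, without the trend or with a 2-fold threshold, 10 with no filter, 465 without both libraries and 0 to 133 with 1 sample left out (133 without sample 2 of the low-dose group). Antiviral genes lower at the high dose than at the low dose numbered 0, 0 to 1 with 1 sample left out and 13 without both libraries. Xaf1 turned from log2 0.02 between the doses to −0.44 without both libraries (adjusted p = 0.0453); the cause was not tested. Correlations of same-numbered samples' deviations from their group means ran from −0.44 to 0.28. With 3 samples a group, these values cannot settle whether replicate numbers pair the samples. With the replicate block, 38 and 36 antiviral genes rose at 0.1 and 1 mg/kg, and 4967, 5541 and 0 of all tested genes passed at the low dose, at the high dose and between the doses. Precision is limited by 3 samples a group.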

Other observations

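Keratin transcripts changed in opposite directions. Krt8 had 4.13, 2.45 and 1.70 FPKM with vehicle, 92.8, 58.7 and 105 FPKM at the low dose and 116, 126 and 103 FPKM at the high dose. Its usual filament partner Krt18 had 63.0, 43.1 and 60.9 FPKM with vehicle, 1.62, 16.8 and 0.932 FPKM at the low dose and 8.84, 1.06 and 1.03 FPKM at the high dose. Krt8 rose by log2 4.54 at the low dose and 5.00 at the high dose, and Krt18 fell by 3.64 and 4.02 (adjusted p = 0.000101 and 5.6e-05 for Krt8, 0.0113 and 0.0066 for Krt18). Without the 2 libraries that stood apart, Krt8 rose by 4.78 and 4.99 at the lower and the higher dose, and Krt18 fell by 4.63 at the low dose and fell by 4.77 at the high dose. Whether reads were assigned to the right one of these genes in the deposited table was not tested, so both levels are uncertain. Both genes were chosen after their values were seen.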
